A study of Mus musculus with 6 samples.

Results

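The clustered histone genes of Raw264.7 macrophages were examined in poly(A) RNA libraries made with or without knockdown of Etv5. The members were chosen by symbol alone, as every row whose name begins with Hist1h, Hist2h, Hist3h or Hist4h. They were 69 of the 24786 gene symbols in the deposited table, namely 6 H1, 19 H2A, 19 H2B, 12 H3 and 13 H4 genes. Testing was limited to the 10738 symbols with an RPKM (reads per kilobase of gene, scaled to mapped reads) of 1 or more in 3 or more libraries, and 22 members were among them.

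Raw264.7 is a mouse macrophage line from a tumor induced by Abelson murine leukemia virus. The labels give the strain C57BL/6 and an age of postnatal day 21 for every library. Whether these labels describe the cell line itself was not checked. Cells of the sh-NC group (n = 3 libraries) received lentivirus with a control shRNA and carry the genotype label control, and cells of the sh-Etv5 group (n = 3 libraries) received lentivirus with an shRNA that lowers Etv5, an ETS family transcription factor. Lipofectamine was present in both groups, and the labels give 24 or 48 hours after infection for both without saying which applies to a library. The study describes stable transfection for the sequencing and puromycin selection among its methods, and the labels mention neither, so the time since infection and the use of selected cells are not settled here. The sources used here do not say which Etv5 shRNA was used for these libraries, whether the cells were clonal, or whether each library had its own infection. The n given here is therefore of libraries, and the p-values measure the spread between them.

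Histone proteins package DNA into nucleosomes. H2A pairs with H2B and H3 pairs with H4 in the nucleosome core, whereas H1 binds the linker DNA outside it. The clustered genes supply most of these proteins during S phase, when DNA is copied, and most of their mRNAs end in a conserved stem-loop, recognized by the stem-loop binding protein Slbp, in place of a poly(A) tail. Poly(A) selection therefore keeps a small and uneven part of histone mRNA, and the levels reported here are levels in poly(A) RNA, not of all histone transcripts.

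Because the stem-loop takes the place of the tail, its sequence is shown for members that carry the results below. The lines give the sense strand from 5′ to 3′ with U written as T, the capitals mark the 16 bases of the stem-loop, and 5 bases on either side are in lower case.
Hist1h1c: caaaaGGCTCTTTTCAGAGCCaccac
Hist2h2aa1: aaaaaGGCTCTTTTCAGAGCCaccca
Hist1h2ag: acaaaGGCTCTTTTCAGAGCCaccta
Hist2h2ac: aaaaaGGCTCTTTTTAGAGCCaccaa
Hist1h4i: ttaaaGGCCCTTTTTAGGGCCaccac
In GRCm38 with the GENCODE M21 annotation, these stretches lie after the stop codon at chr13:23739507-23739532 (Hist1h1c, plus strand), chr3:96246027-96246052 (Hist2h2aa1, plus strand), chr13:22042478-22042503 (Hist1h2ag, minus strand), chr3:96220413-96220438 (Hist2h2ac, minus strand) and chr13:22040961-22040986 (Hist1h4i, minus strand). All 69 members matched that annotation by symbol, and 67 of them were annotated as protein coding. A stem-loop was found within 200 bases after the stop codon in 46 members, against 48 of all 21677 coding genes (0.221%), the other genes being H2afx and H2bfm. The first form printed above occurred in 26 members of the H1, H2A, H2B and H3 families. Genes of the H4 family had other forms, of which the commonest occurred in 7 members including Hist1h4n.

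Members whose annotated transcript gave at least 60 bases after the stop codon numbered 48, and 44 of them held the stem-loop. Among the tested genes, Hist1h2bc and Hist2h2be had long annotated stretches after the stop codon, of 742 and 2192 bases, and no stem-loop match in the searched window. The annotated Hist1h1c transcript ran on for 840 bases beyond its stem-loop, that of Hist2h3c1 for 1167 bases and that of Hist1h4i for 330 bases. Those of Hist2h2aa1 and Hist1h2ag ended 35 and 23 bases beyond their stem-loops. A poly(A) signal (AATAAA or ATTAAA) lay within the last 40 bases of the annotated transcript in 6 tested members and in 11 members that were not tested. The 6 were Hist1h1c, Hist2h3c1 and Hist2h2be, which rose in sh-Etv5 libraries, Hist1h2ae and Hist1h4i, which fell, and Hist3h2a, which was not called. Hist2h3c2, the fixed-ratio copy of Hist2h3c1 described below, had no such signal. The part of the signal in the direction of change was not tested.

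The targeted gene was examined first. Etv5 had an RPKM of 9.18, 9.89 and 9.39 in the sh-NC libraries and of 5.19, 4.91 and 5.28 in the sh-Etv5 libraries, with no overlap, and its log2 fold change was -0.78 (SE 0.0565, limma adjusted p = 2.7e-07). RPKM summed to 320462 to 340257 per library and the number of reads is unknown, so no counting error could be given. Across genes, the correlation of log2 values was at least 0.998 within a group and at most 0.975 between groups. The strongest gene was Eef1a1 in each sh-NC library and Spp1, at 11157 to 11721 RPKM, in each sh-Etv5 library. Of 12 macrophage markers 11 were tested, 5 were higher (Adgre1, Itgam, Spi1, Cd14 and Aif1), 5 were lower, Ptprc was not called and Mertk stayed at or below 0.0653 RPKM. The list summed to 4845 to 4984 RPKM in sh-NC and 3828 to 3971 in sh-Etv5 libraries. The 8 lymphocyte markers stayed at or below 0.365 RPKM, with 1 at 0 in all libraries, and summed to 0.120 to 0.223 in sh-NC and 0.0219 to 0.415 in sh-Etv5 libraries. The 9 fibroblast and epithelial markers stayed at or below 0.0746, with 2 at 0 in all libraries, and summed to 0.0513 to 0.0642 and 0.0531 to 0.128.

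Clustered histone genes were called in both directions after Etv5 knockdown, as were genes in general. Among the 22 tested members, 13 increased and 7 decreased in sh-Etv5 libraries, and the other two, Hist3h2a and Hist2h2ac, were not called. Of all genes tested, 33.3% were called higher and 41.0% lower at the same threshold, a limma adjusted p under 0.05. Without a filter on low values, 13.0% of the 69 members were higher and 7.25% lower, beside 15.0% and 15.9% of all symbols. The median log2 fold change was 0.54 over the tested members and -0.05 over all genes tested. Hist1h2al and Hist1h4n passed the filter through the sh-Etv5 group alone, and Hist1h2ag and Hist1h2ai through the sh-NC group alone, so these 4 had to differ in the direction they did. They are described below without their p-value from this filtered test. Of the 18 that passed through both groups, 11 were higher, 5 lower and 2 not called.

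The calls are given next by gene cluster. The Hist2 cluster on chromosome 3 (chr3:96219865-96270132, 0.0503 Mb) holds 10 members. Of these, 8 were tested, 7 were higher, none was lower and Hist2h2ac was not called. With the 2 pairs of fixed-ratio copies described below counted once, 5 of 6 were higher. These 5 cannot be read as 5 separate measurements. Hist2h2bb and Hist2h3b overlap the same gene model, Gm20628, and Hist2h2aa1 and Hist2h3c1 both overlap exons of another, Gm20634. In the Hist1 cluster on chromosome 13, 54 members lie at chr13:21715763-23934851 (2.22 Mb) and Hist1h2al lies apart at chr13:51202727-51203065. Of its 13 tested members 6 were higher and 7 were lower, and 6 of those 7 encode H2A. The filter fixed the direction of Hist1h2al and Hist1h4n among the higher and of the H2A genes Hist1h2ag and Hist1h2ai among the lower. Of all genes tested, 33.3% were higher and 41.0% lower. The Hist3 cluster at chr11:58948920-58956830 gave 1 tested gene of 3, and the single Hist4 gene at chr6:136801553-136804415 was not tested.

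**Figure D1:**
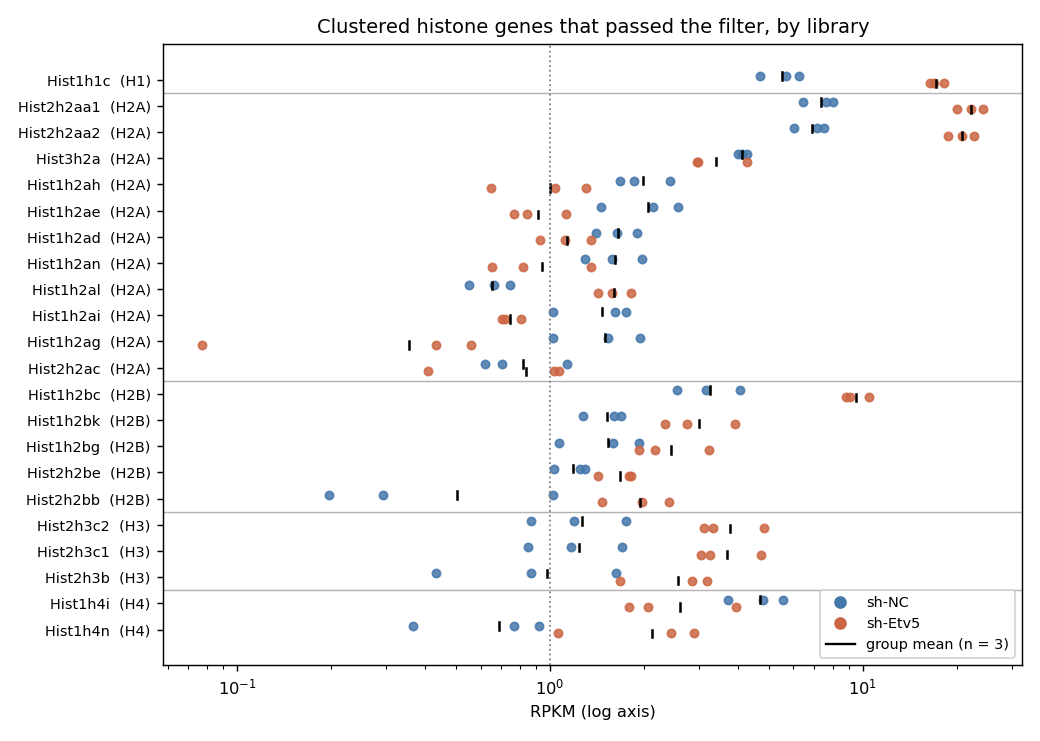
RPKM (log axis) of the 22 tested clustered histone genes in each library, 3 sh-NC libraries in blue and 3 sh-Etv5 libraries in orange, with a black bar at each group mean, a dotted line at 1 RPKM and grey lines between families. The points of Hist1h1c, Hist2h2aa1, Hist2h2aa2 and Hist1h2bc stand to the right and apart by group, and most other genes lie within a few RPKM of 1.

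The H1 family was represented by a single gene. Hist1h1c, which encodes a linker histone found in many cell types (ENSMUSG00000036181.2, chr13:23738808-23740367, plus strand), measured 5.67, 4.69 and 6.25 RPKM in sh-NC libraries and 16.9, 16.4 and 18.2 in sh-Etv5 libraries. The lowest sh-Etv5 value was far above the highest sh-NC value. Its mean rose 3.10-fold, and the log2 fold change was 1.48, as for all genes below on log2(RPKM + 1) values (SE 0.0828, limma adjusted p = 3.0e-08). Only 8.54% of the 50-base stretches of its transcript also occur in another gene, so its reads are largely its own. The other 5 H1 genes were below 1 RPKM in every library, summed to 0.722 ± 0.336 RPKM in sh-NC and 1.16 ± 0.244 in sh-Etv5 libraries (SD, n = 3), and the testis gene Hist1h1t was at 0 in all of them.

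H2A was the family with the highest levels and the widest split. Hist2h2aa1 (ENSMUSG00000064220.6, chr3:96245497-96246082, plus strand) had 7.62, 6.46 and 8.01 RPKM in sh-NC and 22.2, 20.0 and 24.3 in sh-Etv5 libraries. Hist2h2aa2, its inverted copy (ENSMUSG00000063954.7, chr3:96239749-96240276, minus strand), had 7.12, 6.04 and 7.49 against 20.8, 18.7 and 22.7. Both rose about 3.01-fold in the mean, with log2 fold changes of 1.47 and 1.46 (SE 0.0816 and 0.0817, limma adjusted p = 2.9e-08 and 3.0e-08). The pair kept 1 ratio to within 0.215% in all libraries, and all of their transcript sequence occurs in another annotated gene, so they cannot be read as separate measurements.

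Of the 7 tested H2A genes of the Hist1 cluster, 6 were lower and Hist1h2al was higher. Hist1h2ag (chr13:22042460-22042944, minus strand) had 1.94, 1.53 and 1.03 RPKM in sh-NC and 0.557, 0.432 and 0.0776 in sh-Etv5 libraries. Its mean was 4.21-fold lower and its log2 fold change was -0.88, the smaller size on that scale coming from the 1 added to each value. It passed the filter through sh-NC alone, so its direction and the gap between its groups were fixed by the filter and are a description. Hist1h2ae (chr13:23570517-23571220, minus strand) fell from 1.46, 2.14 and 2.57 to 0.847, 1.12 and 0.769 RPKM (log2 fold change -0.66, limma adjusted p = 0.00078). Hist1h2ah fell from 1.86, 2.43 and 1.67 to 1.31, 0.650 and 1.04 RPKM (log2 fold change -0.58, limma adjusted p = 0.0019). Neither gene had overlapping groups.

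Smaller decreases were found in Hist1h2an (log2 fold change -0.44, limma adjusted p = 0.013) and Hist1h2ad (-0.31, 0.016). Hist1h2ai, which also passed through sh-NC alone, had a log2 fold change of -0.49. Hist1h2an overlapped between the groups, since an sh-Etv5 library reached 1.35 RPKM and an sh-NC library was at 1.29. Its call was lost without sh-NC replicate 2 (-0.34, limma adjusted p = 0.055) and without sh-Etv5 replicate 2 (-0.33, 0.061), and that of Hist1h2ad without sh-NC replicate 3 (-0.24, 0.075) and without sh-Etv5 replicate 3 (-0.24, 0.060). These 6 genes share 43.2% to 92.1% of their 50-base stretches with another gene, most often with each other, so their values are not independent measurements. Without a filter on low values, the test across all 24786 symbols called only Hist1h2ae and Hist1h2ag of the 6, with limma adjusted p-values of 0.0548 to 0.158 for the other 4. That test called 15.0% of all symbols higher and 15.9% lower.

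The remaining tested H2A genes were Hist1h2al, which was higher like the Hist2h2aa1 pair, and Hist3h2a and Hist2h2ac, which were not called. Hist1h2al, which GENCODE calls a processed pseudogene, measured 0.662, 0.743 and 0.552 RPKM in sh-NC and 1.82, 1.58 and 1.42 in sh-Etv5 libraries (log2 fold change 0.66), in the direction fixed by its passing through sh-Etv5 alone. It shares 67.6% of its sequence with another gene, including gene models of the Hist2 region such as Gm20632, and how its reads were assigned was not tested. Hist3h2a measured 4.10, 4.25 and 3.98 RPKM in sh-NC and 4.25, 2.98 and 2.95 in sh-Etv5 libraries, and its log2 fold change of -0.23 was not called (limma adjusted p = 0.063). Replicate 1 of sh-Etv5 stood with the controls in that gene, and without it the gene was called lower (log2 fold change -0.37, limma adjusted p = 0.0013). Exons of Hist3h2a overlap those of Trim17 and Gm44313, and 31.5% of its 50-base stretches occur in another gene, most in Trim17. Its values can therefore hold reads of Trim17. Hist2h2ac lay between 0.406 and 1.13 RPKM with overlapping groups, and its log2 fold change of 0.00 (95% interval -0.34 to 0.35) left a rise or a fall of that size undecided.

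The 5 tested H2B genes were all called higher, in both clusters. Hist1h2bk shares 74.2% of its 50-base stretches with another gene, and Hist1h2bg 49.7%, most with Hist1h2bc. The 5 values are therefore not independent measurements. Hist1h2bc (ENSMUSG00000018102.5, chr13:23684199-23692908, plus strand), whose annotated transcript has 2 exons, measured 3.16, 2.55 and 4.05 RPKM in sh-NC and 8.85, 10.5 and 9.10 in sh-Etv5 libraries. Its groups were well apart, its mean rose 2.91-fold, and its log2 fold change was 1.31 (SE 0.113, limma adjusted p = 1.1e-06). Hist2h2bb had 1.02, 0.293 and 0.196 RPKM against 2.40, 1.97 and 1.46 (log2 fold change 1.00, SE 0.183, limma adjusted p = 0.00048), but its whole transcript is contained in that of an overlapping gene model, Gm20628.

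Hist1h2bk rose from 1.68, 1.60 and 1.28 to 2.34, 3.90 and 2.73 RPKM (log2 fold change 0.65, limma adjusted p = 0.00085). Hist1h2bg measured 1.93, 1.07 and 1.59 RPKM in sh-NC and 1.92, 2.16 and 3.22 in sh-Etv5 libraries, where the lowest sh-Etv5 value just touched the highest sh-NC value. Its log2 fold change was 0.44 (SE 0.150, limma adjusted p = 0.021), and the call was lost without sh-NC replicate 2 (0.30, 0.084) and without sh-Etv5 replicate 3 (0.28, 0.082). Hist2h2be, known as an H2B of olfactory neurons, shares no 50-base stretch with another gene and rose from 1.03, 1.25 and 1.29 to 1.81, 1.43 and 1.79 RPKM. This was the smallest called increase (log2 fold change 0.29, limma adjusted p = 0.014) and passed the threshold neither without sh-NC replicate 1 (0.24, 0.058) nor without sh-Etv5 replicate 1 (0.25, 0.050).

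The 3 tested H3 genes all belong to the Hist2 cluster and all rose. Hist2h3c2 measured 1.74, 0.870 and 1.19 RPKM in sh-NC and 3.10, 3.32 and 4.83 in sh-Etv5 libraries, a log2 fold change of 1.07 (SE 0.153, limma adjusted p = 7.5e-05). It kept a ratio of 1.02 to Hist2h3c1 in every library, so the pair is read as 1 measurement. Hist2h3b rose from 1.63, 0.432 and 0.867 to 2.84, 1.68 and 3.16 RPKM (log2 fold change 0.87, SE 0.209, limma adjusted p = 0.0030), with a narrow gap between the highest control and the lowest knockdown library. Like Hist2h2bb, its whole transcript is contained in that of Gm20628, so these genes cannot be read as independent increases. None of the 9 H3 genes of the Hist1 cluster passed the filter. Their summed level was 5.69 ± 1.37 RPKM in sh-NC and 3.51 ± 0.786 in sh-Etv5 libraries (SD, n = 3).

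Of the 2 tested H4 genes, Hist1h4i was lower and the direction of Hist1h4n was fixed by the filter. Hist1h4i (chr13:22040636-22041362, minus strand) measured 3.71, 5.54 and 4.81 RPKM in sh-NC and 2.05, 1.79 and 3.94 in sh-Etv5 libraries. The groups overlapped through sh-Etv5 replicate 3, and the log2 fold change was -0.70 (SE 0.188, limma adjusted p = 0.0061). Hist1h4n, which passed through sh-Etv5 alone, measured 0.365, 0.925 and 0.768 RPKM in sh-NC and 1.06, 2.88 and 2.43 in sh-Etv5 libraries (log2 fold change 0.86). It shares 85.6% of its 50-base stretches with another gene, most with Hist1h4m, which did not pass the filter at 0.277, 0.725 and 0.571 RPKM in sh-NC and 0.961, 2.02 and 1.88 in sh-Etv5 libraries. The H4 genes encode the same protein, but they share from 1.01% (Hist2h4) to 89.8% (Hist1h4m) of their 50-base stretches with another gene. Reads of the copies that share most can be counted for others.

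**Figure D2:**
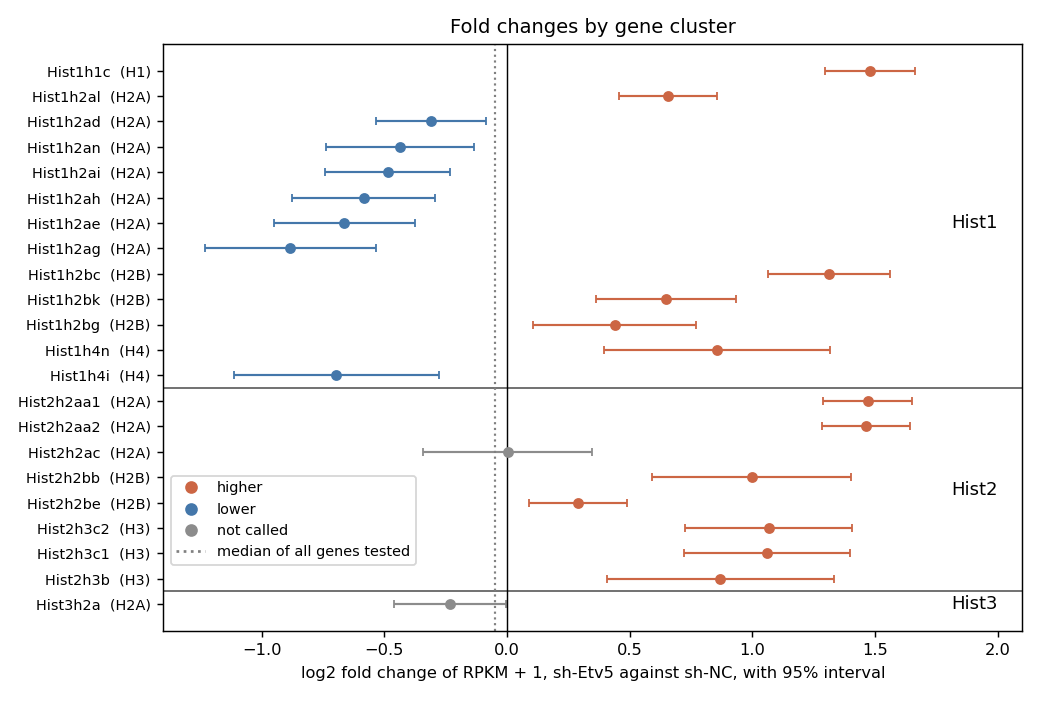
Log2 fold change of RPKM + 1 (sh-Etv5 against sh-NC, x axis) of each tested clustered histone gene with its 95% interval from limma, grouped by gene cluster and colored by call, with the median of all genes tested as a dotted line. In the Hist2 block 7 of 8 genes lie to the right, and in the Hist1 block H2A genes lie to the left and H2B genes to the right, apart from Hist1h2al.

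The values of all tested members without overlap between groups were 12 higher and 5 lower. The filter alone fixed the gap of Hist1h2al and Hist1h4n among the higher and of Hist1h2ag and Hist1h2ai among the lower. Both genes of each tested fixed-ratio pair are also counted among the higher. Of all genes tested, 34.3% were higher and 42.1% were lower without overlap. The overlapping 5 were Hist2h2ac, Hist3h2a, Hist1h2an, Hist1h2bg and Hist1h4i. In the rows that failed the filter, 39 of 47 overlapped, 4 lay higher and 4 lower.

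H2A and H2B genes often stand head to head, with a short stretch of DNA between their starts. Such pairs of members numbered 13, with 172 to 305 bases between the annotated starts. In 6 of them the H2A mean was lower and the H2B mean was higher in sh-Etv5 libraries, in 2 both were higher, in 2 both were lower, in 1 the H2A mean was higher and the H2B mean lower, and in 2 a member was at 0. The 6 pairs counted first include those of Hist1h2br and Hist1h2bq, which had identical values. They also include those of Hist1h2ag and Hist1h2ai, whose direction the filter fixed. In 10 of the 13 pairs a member was not tested, and group means of such members reached 0.937 RPKM at most. Both members were tested in 3 pairs, and 2 of these had opposite calls. In Hist1h2ae and Hist1h2bg, and likewise in Hist1h2ah and Hist1h2bk, H2A fell and H2B rose. These genes share 43.2% to 92.1% of their 50-base stretches with another gene, so their values can hold reads of other members. In Hist2h2ac and Hist2h2be only H2B was called. Without a filter on low values no pair kept opposite calls. Hist1h2bg (limma adjusted p = 0.22), Hist1h2ah (0.063) and Hist2h2be (0.073) were then not called. The DNA between Hist1h2ae and Hist1h2bg is shown because it lies between a gene that fell and a gene that rose (chr13:23571221-23571395, GRCm38, plus strand, sequence from RefSeq). Capitals mark CCAAT and its reverse complement ATTGG, the octamer ATTTGCAT and the TATA box TATAAA, and Hist1h2bg begins to the right.
Hist1h2ae to Hist1h2bg: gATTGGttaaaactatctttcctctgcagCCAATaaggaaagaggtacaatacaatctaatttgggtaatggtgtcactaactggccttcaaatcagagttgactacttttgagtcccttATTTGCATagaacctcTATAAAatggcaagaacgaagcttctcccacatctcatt
The octamer and the TATA box stood near the start of Hist1h2bg and both CCAAT matches stood near the start of Hist1h2ae.

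**Figure D3:**
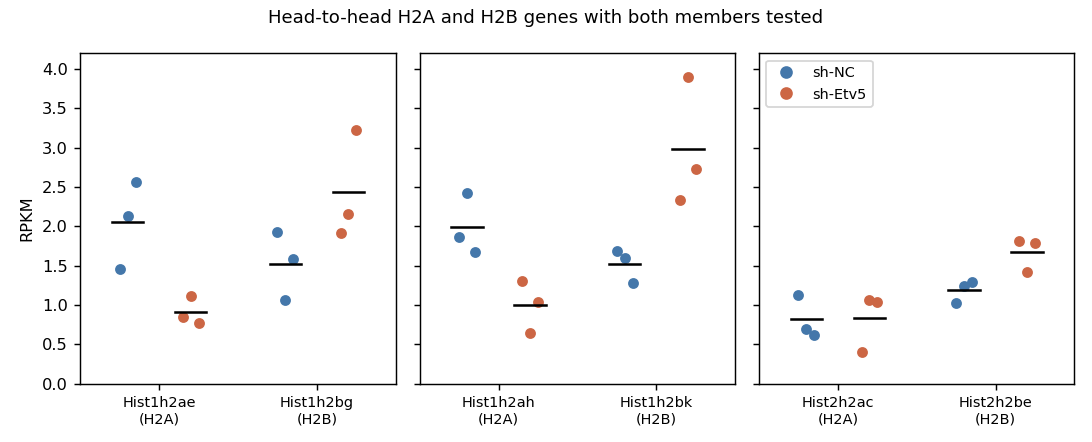
RPKM per library (y axis from 0) of the 3 head-to-head H2A and H2B pairs with both genes tested, sh-NC libraries in blue, sh-Etv5 libraries in orange, and bars at the group means (n = 3). In the left and middle pairs the H2A gene lies lower and the H2B gene higher in sh-Etv5 libraries, and in the right pair Hist2h2ac overlaps between the groups.

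Promoter sequences (250 bases before to 50 after the start, RefSeq, GRCm38) were found for 61 of the 69 members through RefSeq synonyms. CCAAT on either strand occurred in 85.2% of the members and in 37.9% of all 27025 promoters. It was found in all 6 H1, 17 H2A, 16 H2B and 10 H3 promoters, and in 3 of 12 H4 promoters. TATAAA on the sense strand occurred in 49.2% of members against 8.88% of all promoters. ATTTGCAT on either strand occurred in 21.3% against 1.75%, in 7 H2A and 6 H2B genes and in none of the others. The H1 box AAACACA on either strand occurred in 5 of 6 H1 promoters, and in 14.8% of members against 7.14% of all promoters. CGGAAG on either strand, a core to which ETS factors as a class bind, occurred in 13.1% of members against 17.2% of all promoters.

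The bases before the start are shown for the H1 gene that rose, an H2A gene that was lower and the H4 gene that fell. Capitals mark matches to the motifs just named, and each line ends 1 base before the annotated start. They lie at chr13:23738657-23738806 (Hist1h1c, plus strand), chr13:22042950-22043099 (Hist1h2ag, minus strand) and chr13:22041363-22041512 (Hist1h4i, minus strand).
Hist1h1c: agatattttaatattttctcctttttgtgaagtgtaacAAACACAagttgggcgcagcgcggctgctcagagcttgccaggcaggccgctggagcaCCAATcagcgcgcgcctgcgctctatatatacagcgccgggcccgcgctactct
Hist1h2ag: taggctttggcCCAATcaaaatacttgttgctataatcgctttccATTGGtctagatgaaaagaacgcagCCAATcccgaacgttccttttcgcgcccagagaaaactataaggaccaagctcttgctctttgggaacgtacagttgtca
Hist1h4i: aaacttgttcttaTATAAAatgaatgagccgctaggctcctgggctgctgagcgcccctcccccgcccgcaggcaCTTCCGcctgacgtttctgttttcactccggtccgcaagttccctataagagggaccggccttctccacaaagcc
Hist1h1c carried the H1 box and CCAAT, Hist1h2ag carried CCAAT 3 times in this stretch, and Hist1h4i carried no CCAAT, in common with most H4 genes. CCAAT was present in promoters of genes that rose and of genes that fell.

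Family totals were dominated by few genes. RPKM summed over all 69 members was 71.3, 65.8 and 70.2 in sh-NC libraries and 117, 114 and 127 in sh-Etv5 libraries, a ratio of means of 1.73. These sums made up 0.0205% to 0.0221% of all RPKM in sh-NC and 0.0346% to 0.0374% in sh-Etv5 libraries. The H1 sum was 6.26 ± 0.933 and 18.3 ± 0.880 RPKM (SD, n = 3), of which Hist1h1c made up 88.5% and 93.7%. H2A summed to 33.9 ± 1.31 in sh-NC and 56.2 ± 4.49 RPKM in sh-Etv5 libraries, but without Hist2h2aa1 and Hist2h2aa2 the remaining 17 H2A genes summed to 19.6 ± 0.967 and 13.3 ± 1.95. The direction of the H2A total thus depended on that pair. H2B summed to 10.9 ± 0.716 and 22.7 ± 2.53 RPKM, H3 to 9.18 ± 0.476 and 13.5 ± 3.17, and H4 to 8.87 ± 0.343 and 8.91 ± 1.24. The H4 sums of the groups overlapped. Because reads shared between copies can be counted more than 1 time, sums are a description and were not tested.

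The same totals by cluster are given next, with both genes of each fixed-ratio pair counted. The Hist2 sum thus includes the repeats Hist2h2aa2 (means 6.89 in sh-NC and 20.7 RPKM in sh-Etv5 libraries) and Hist2h3c2 (1.27 and 3.75). The Hist1 sum includes the repeat Hist1h2br (0.508 and 0.937). The Hist2 sum went from 20.4 ± 3.17 to 57.6 ± 6.44 RPKM (SD, n = 3), a ratio of 2.82, and its H2A, H2B and H3 parts had ratios of 2.89, 2.14 and 2.86. The Hist1 sum went from 44.2 ± 0.630 to 58.4 ± 1.95, and without Hist1h1c and Hist1h2bc from 35.4 ± 1.76 to 31.7 ± 1.19. Within Hist1, the 14 H2A genes had a ratio of 0.617, the 9 H3 genes 0.616, the 11 H4 genes 1.00 and the 15 H2B genes 2.07.

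**Figure D4:**
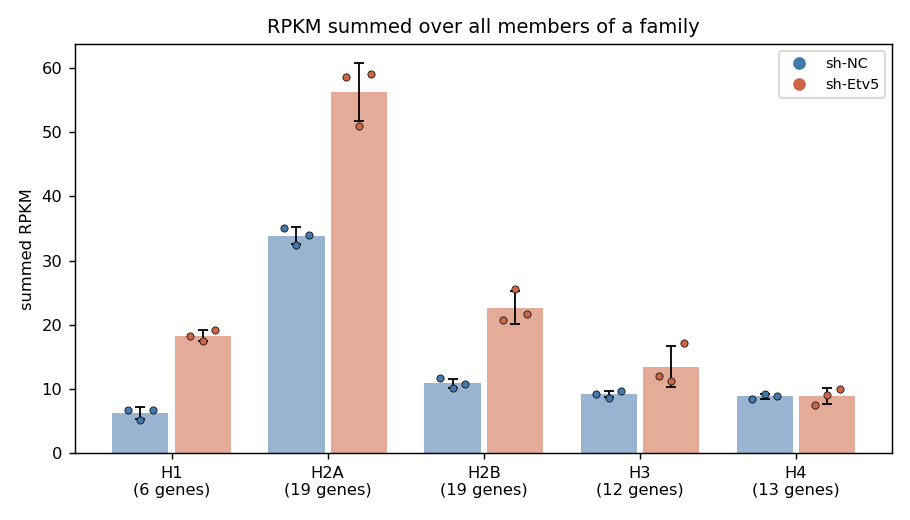
RPKM summed over all members of each histone family (y axis from 0), with bars at the mean of 3 libraries, error bars of 1 SD and a point per library, sh-NC in blue and sh-Etv5 in orange. H1, H2A, H2B and H3 lie higher in each sh-Etv5 library, and the H4 points of the groups overlap.

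The 47 members that were not tested summed to 16.6 ± 0.977 RPKM in sh-NC and 15.4 ± 1.02 in sh-Etv5 libraries. Of all 69, 32 were below 1 RPKM in every library and 3 were at 0 in every library (Hist1h1t, Hist1h2aa and Hist3h2bb-ps). The filter fell between Hist2h2ac (tested, mean 0.827 RPKM) and Hist1h2ab (not tested, 0.842 RPKM, at 1 RPKM in 2 libraries) in H2A, and between Hist1h4n (1.41 RPKM) and Hist1h4m (1.07 RPKM) in H4. In H2B it fell between Hist2h2bb (1.22 RPKM) and Hist1h2br (0.723 RPKM), in H3 between Hist2h3b (1.77 RPKM) and Hist1h3d (0.888 RPKM), and in H1 between Hist1h1c (11.3 RPKM) and Hist1h1e (0.479 RPKM). Hist1h2bq and Hist1h2br had identical values in all libraries.

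Tested without a filter, 9 of the 69 members were higher (13.0%) and 5 lower (7.25%), beside 15.0% and 15.9% of all 24786 symbols. Neither share was above that of all symbols. Of the 20 members called with the filter, 11 kept their call and direction. The 11 include both genes of each tested fixed-ratio pair, and Hist1h2ag and Hist1h2al, whose direction in the filtered test was fixed. Besides the 4 H2A genes above, the calls of Hist1h2bg, Hist2h2be, Hist2h3b, Hist1h4i and Hist1h4n were lost, with limma adjusted p-values of 0.073 to 0.22. The 3 that were called lower only without it were Hist1h2ab (0.902, 1.33 and 1.05 RPKM in sh-NC and 0.516, 0.717 and 0.531 in sh-Etv5 libraries), Hist1h3h (0.690, 1.09 and 1.09 against 0.431, 0.464 and 0.554) and Hist1h4f (0.470, 0.538 and 0.271 against 0 in all). All of them are Hist1 genes near or below 1 RPKM. No member outside the filter was called higher.

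Histone genes outside the clusters encode histone variants and linker histones. Of 11 such genes 9 were tested, 8 were lower, none was higher and H3f3b was not called, beside 41.0% lower and 33.3% higher among all genes tested. The median log2 fold change was -0.47, and a difference from the clustered genes was not tested. H2afx, a variant phosphorylated at DNA breaks whose gene also holds the stem-loop, had 112, 112 and 114 RPKM in sh-NC and 56.6, 54.1 and 54.8 in sh-Etv5 libraries (log2 fold change -1.02, limma adjusted p = 4.5e-10). H2afz, a variant placed at promoters, had 251, 253 and 260 against 123, 121 and 131 (-1.02, 9.2e-10). Cenpa, the H3 variant of centromeres, fell from 89.2, 88.8 and 89.0 to 28.0, 26.9 and 28.8 RPKM (-1.64, 2.0e-11). The groups of these 3 genes were far apart, with levels per kilobase well above those of any clustered gene.

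H2afv (log2 fold change -0.78), H3f3a (-0.47), H2afj (-0.40) and the linker histone gene H1f0 (-0.30) were lower as well, with limma adjusted p-values of 6.4e-06, 1.2e-05, 1.9e-05 and 2.8e-05. H3f3b, which encodes the same H3 protein as H3f3a, had a mean of 259 ± 4.80 RPKM in sh-NC and 264 ± 13.5 in sh-Etv5 libraries. H1fx stayed at or below 0.0496 RPKM in every library. Among linker histones, the clustered gene Hist1h1c thus rose and H1f0 fell.

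Genes that control histone mRNA were mostly lower. Of 30 such genes 29 were tested, 3 were higher, 23 lower and 3 not called, against 33.3% higher and 41.0% lower among all genes tested, and the median log2 fold change was -0.33. Slbp, whose protein binds the stem-loop, had 41.2, 43.2 and 42.7 RPKM in sh-NC and 28.0, 26.7 and 28.8 in sh-Etv5 libraries (log2 fold change -0.59, SE 0.0413, limma adjusted p = 2.0e-07). Npat, which activates histone transcription at histone locus bodies, was lower by a small amount (8.39 ± 0.224 against 7.30 ± 0.126 RPKM, log2 fold change -0.18, limma adjusted p = 0.0091). Casp8ap2, a partner of Npat in those bodies, fell further (5.60 ± 0.356 against 4.03 ± 0.301, -0.39, 0.00040), as did Eri1, an exonuclease that degrades histone mRNA (14.8 ± 0.490 against 10.1 ± 0.435, -0.52, 3.2e-06).

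The U7 snRNP, which directs cleavage after the stem-loop, has Lsm10 and Lsm11 as its own subunits. Lsm10 rose from 7.79 ± 0.697 to 11.0 ± 1.07 RPKM (log2 fold change 0.45, limma adjusted p = 0.00030), and Lsm11 was not called (2.36 ± 0.244 against 2.32 ± 0.129, -0.01, 0.89). Hinfp, a factor for H4 gene transcription, was not called (13.1 ± 0.218 against 13.7 ± 0.428, 0.06, 0.25). Zfp473 stayed at or below 0.547 RPKM and was not tested. Snrpg, an Sm protein shared by U7 and the splicing snRNPs, had the largest change of the list (48.4 ± 6.09 against 30.0 ± 5.09, -0.68, 0.00016).

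Genes of S phase, the part of the cell cycle in which clustered histone genes are expressed, were lower in 28 of 30 tested, with none higher and a median log2 fold change of -0.62, against 41.0% lower and 33.3% higher among all genes tested. Tk1 and Ccna2 changed most. Tk1, a thymidine kinase, had 81.3, 82.4 and 79.2 RPKM in sh-NC and 30.5, 30.7 and 33.5 in sh-Etv5 libraries (log2 fold change -1.33, limma adjusted p = 3.9e-10), and Ccna2, cyclin A, had 73.6, 70.3 and 72.6 against 28.9, 28.6 and 28.5 (-1.30, 1.0e-10). Mcm2, of the replicative helicase, went from 86.5 ± 2.12 to 53.4 ± 0.842 RPKM (-0.69), Pcna, the sliding clamp, from 212 ± 6.76 to 164 ± 3.64 (-0.37) and Rrm2, of ribonucleotide reductase, from 91.7 ± 2.43 to 71.4 ± 1.60 (-0.36), with limma adjusted p-values of 1.3e-08, 2.4e-06 and 3.5e-06. Ccne2 fell (10.1 ± 0.425 against 6.21 ± 0.110, -0.62, 1.1e-06) and Ccne1, the other cyclin E, was not called (18.0 ± 0.747 against 18.2 ± 1.17, 0.01, 0.87), as was E2f1. Whether fewer cells were in S phase or each cell held less of these mRNAs cannot be told apart in bulk RNA. The 13 clustered genes called higher moved opposite to this list and the 7 called lower moved with it, and the part of the cell cycle in either was not tested.

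**Figure D5:**
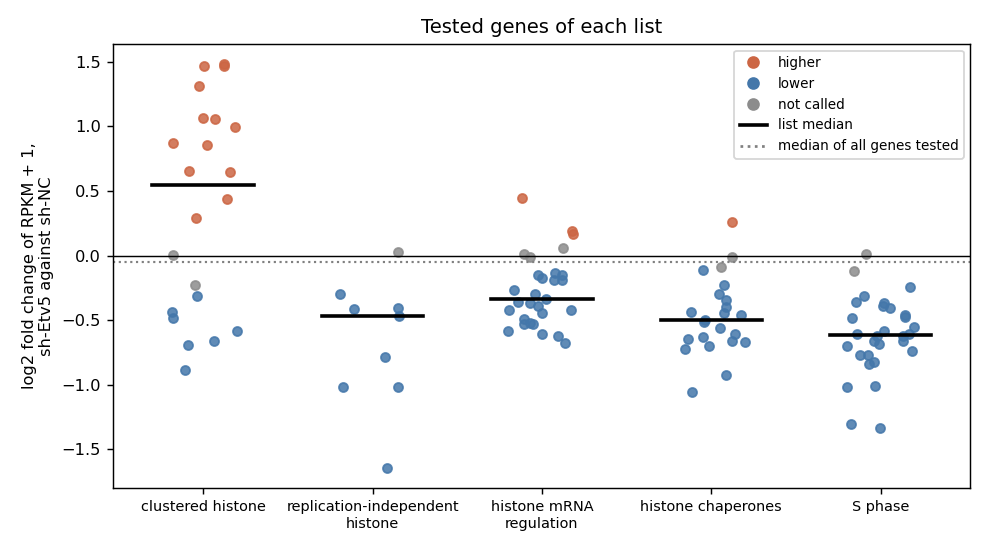
Log2 fold change of RPKM + 1 (sh-Etv5 against sh-NC, y axis) of each tested gene in 5 lists, colored by call, with a black bar at the list median and a dotted line at the median of all genes tested. The clustered histone genes spread on both sides of 0 with a median of 0.54, and the other 4 lists lie mostly below 0.

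RNAs that lack a regular poly(A) tail were read to see how much of such RNA the libraries held. Of 19 listed, 12 had a row and only Malat1 was tested. Malat1, a nuclear long RNA whose end is a triple helix, had 66.1, 74.8 and 70.9 RPKM in sh-NC and 113, 112 and 95.1 in sh-Etv5 libraries, without overlap (log2 fold change 0.59, SE 0.0657, limma adjusted p = 1.0e-05). The other 11 stayed at or below 2.25 RPKM. Rmrp, the RNA of RNase MRP, had 0.350, 0.350 and 0.527 against 2.25, 0.494 and 1.36 RPKM. Rpph1, the RNA of RNase P, had 0.594, 0.743 and 0.596 against 1.13, 0.558 and 1.16, and Terc, the telomerase RNA, had 0.997, 0.908 and 0.408 against 0.762, 0.390 and 0.0486. Groups overlapped in these 3, which were not tested. How much of each library was RNA without a tail, and its part in the histone values, was not tested.

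Sequence shared between copies bears on the whole family. The median member had 54.1% of its 50-base stretches in another gene, 35 members shared at least 50% and 4 shared none (Hist2h2be, Hist1h1a, Hist1h1b and Hist1h1t). Exons of 25 members overlapped those of other annotated genes. Among the genes that rose, Hist1h1c, Hist1h2bc at 30.6% and Hist2h2be rest mostly on sequence of their own, and among those that fell Hist1h4i at 28.9% and Hist1h2ae at 43.2% shared least.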

How the data were processed

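Poly(A) RNA of 3 sh-NC and 3 sh-Etv5 libraries of Raw264.7 cells was prepared by the authors with an Illumina TruSeq RNA kit. The authors deposited RPKM values, reads per kilobase scaled to mapped reads, as 1 value per gene symbol and library, taken from coverage tracks. The submitters' processing notes name the build mm10. The aligner, annotation, counter and use of strand are not given in the sources used here. Depth is unknown, because low values showed no common step (the commonest ratio covered 5.02% of 1176 low value pairs), and RPKM of overlapping or near-identical genes can share reads. All 6 columns were used, with groups and replicate numbers from the labels.

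Symbols that reached 1 RPKM in 3 or more of the 6 libraries entered 1 limma fit of log2(RPKM + 1) on group (limma 3.58.1, R 4.3.3), with moderated variances that follow an intensity trend, two-sided tests and no covariate. The call was a p-value under 0.05 after Benjamini-Hochberg adjustment over all symbols tested. Fold changes on that scale understate those of low genes. A single gene could not pass an exact permutation test, whose smallest p for 3 against 3 libraries is 0.1. The fit was tested on simulated data. Sums over members were not tested.

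The members and gene lists were chosen with earlier results of these data known. Every member was counted, each tested member was named, with values in every library for the highest ones and the largest change of each family, and genes of the other lists were named from a fixed list or as the pair with the largest change. Hist1h4m, Hist1h4f, Hist1h3h, Hist1h2ab, Spp1 and several members' library values were added after the values were seen, as were the head-to-head pairs and sums by cluster.

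Transcripts, stop codons and coordinates came from GENCODE M21 (GRCm38) and promoters from RefSeq, handled in Python 3.11.15 with NumPy 2.4.6 and pandas 2.3.3. The stem-loop was searched within 200 bases after the stop codon, as a stem of paired bases around a loop, with the usual variable positions, and shared sequence as 50-base stretches. Alternatives were no filter, pseudocounts of 0.1 and 0.01, a filter at a mean RPKM of 5, equal RPKM sums, quantile normalization, no intensity trend, the replicate block, leaving out each library and an adjusted p under 0.01. A mean RPKM of at least 1 and counting fixed-ratio copies 1 time were chosen after seeing the data. Protein sequences were not analysed here.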

Additional observations from a re-analysis of the deposited data

How the results depend on the processing

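The clustered histone genes called higher and lower numbered 13 and 7. They stayed within 1.5 times of this under the alternatives other than a mean RPKM of at least 5, which left 4 members to test, of which 4 were higher and 0 lower (at an unadjusted p under 0.05 the count of lower members was also 0, since each of the 4 rose). Equal RPKM sums gave 13 and 8, and quantile normalization 11 and 8. Leaving out 1 library gave 12 to 13 higher, 6 to 8 lower, and 7510 to 7865 calls over all genes, against 7974. The median log2 fold change of tested members was 0.54. It was 0.78 and 0.81 with pseudocounts of 0.1 and 0.01, 0.00 over all 69 members without the filter, 1.47 at a mean RPKM of at least 5, and 0.36 with fixed-ratio copies counted once (an alternative chosen after seeing the data), and it ranged from 0.48 to 0.61 with 1 library left out. Fewer or more members tested account for the third, the fourth and the fifth of these values. Rescaling moved the median of all genes from -0.05 to -0.10 at most.

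Of the 22 tested members, 11 kept direction and call under each alternative in which they were tested (4 members remained at a mean RPKM of at least 5). The 11 include Hist1h2ag and Hist1h2al, whose direction the filter fixed, and most alternatives kept that filter. They also include both genes of the fixed-ratio pairs of Hist2h2aa1 and Hist2h3c1. With quantile normalization the calls of Hist1h2bg (0.32) and Hist2h2be (0.14) were lost, and Hist3h2a was called lower with it (-0.30) and with equal sums (-0.28). Hist2h2ac, never called, turned negative with pseudocounts of 0.1 and 0.01 (-0.027 and -0.042), equal sums (-0.023) and quantile normalization (-0.13), and lay between -0.093 and 0.19 when a library was left out. With equal sums, Ccne1 turned to -0.048 and H3f3b to -0.034. When a library was left out, Ccne1 lay between -0.024 and 0.061, H3f3b between -0.015 and 0.052 and Lsm11 between -0.072 and 0.032, none with a call. The cause was not tested.

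Replicate numbers did not pair the libraries, since deviations of same-numbered libraries correlated at 0.07, -0.07 and -0.04. With the replicate block, 13 members were higher, 7 lower and 7900 genes called in all, and the same 20 members were called.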

Other observations

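Histone chaperones and assembly factors, which carry histones to DNA, were mostly lower in sh-Etv5 libraries. All 23 were tested, 20 were lower, 1 was higher (Ipo4) and 2 were not called (Chaf1b and Daxx), with a median log2 fold change of -0.50. Of all genes tested, 41.0% were lower. Chaf1a, the large subunit of the assembly factor CAF-1, measured 36.5 ± 0.907 RPKM in sh-NC and 17.1 ± 0.841 in sh-Etv5 libraries (SD, n = 3, log2 fold change -1.05, limma adjusted p = 3.8e-09). Chaf1b, the subunit next to it, measured 20.6 ± 0.435 and 19.3 ± 1.04 (-0.09, 0.11). Hjurp, the chaperone of Cenpa, measured 32.7 ± 1.15 and 16.7 ± 0.397 (-0.93, 6.7e-09). Asf1b, an H3 and H4 chaperone of dividing cells, fell further (62.4 ± 3.01 against 38.2 ± 2.32, -0.70, 2.7e-07) than its relative Asf1a (12 ± 0.455 against 8.57 ± 0.549, -0.44, 3.3e-05), and the difference between the pair was not tested. Nasp, a chaperone of H1 and H3, fell as well (47.4 ± 1.35 against 28.3 ± 0.487, -0.72, 1.8e-08). Asf1a, Asf1b, Nasp and Chaf1b were named after their values were seen.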
